A study of Rattus norvegicus with 16 samples.

Results

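The genes described here encode cullins, F-box proteins and Kelch-like proteins, the scaffolds and substrate receptors of cullin-RING ubiquitin ligases. They were taken by name from a table of genes enriched by an RNA immunoprecipitation (RIP): protein-coding genes whose symbol begins with Fbxl, Fbxo or Fbxw, or with Klhl or Cul and a digit. That rule gave 60 of the 8420 protein-coding genes of the table, or 0.713%: 6 cullins, 37 F-box genes (24 Fbxo, 7 Fbxl and 6 Fbxw) and 17 Kelch-like genes. The RefSeq gene table of the GRCr8 assembly names 111 protein-coding rat genes by the same rule; 59 of the 60 members matched it by symbol and 1, Fbxo18, by synonym (Fbh1). Another 52 of its symbols, Cul3 and Cul7 among them, have no row in the RIP table and were not analysed here.

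The tissue was the dorsal horn of the spinal cord of wild-type rats, where sensory fibres for pain end. Rats with cancer-induced bone pain (CIBP, bone cancer pain) were set against normal rats (control), and the labels give no strain, sex or age. N4-acetylcytidine (ac4C), an acetylated form of cytidine in RNA, was mapped in 3 bone cancer pain and 3 control replicates, each an antibody-precipitated (IP) library with its input, from which the authors called 1 peak list. A second RIP, from bone cancer pain alone, had 2 IP and 2 input libraries, and the sources used here do not name its antibody target. The bone cancer pain lists are themselves named with the letters CFA, so the comparisons with controls depend on the labels being right. Whether a replicate is 1 rat or a pool is not given, and in bulk tissue fewer cells of a type cannot be told apart from less RNA per cell.

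Cullin-RING ligases attach ubiquitin to proteins and so mark many of them for the proteasome. A cullin forms the scaffold; its far end binds a RING protein and the ubiquitin-loaded enzyme, and its near end binds an adaptor with a substrate receptor. CUL1 takes F-box proteins through SKP1, CUL3 takes Kelch-like and other BTB proteins directly, CUL2 and CUL5 take receptors through elongins B and C, and CUL4A and CUL4B through DDB1. Fbxl proteins carry leucine-rich repeats, Fbxw proteins WD40 repeats, and Fbxo proteins other domains. In neurons these ligases are known for control of synaptic proteins, axon growth and protein quality.

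Read totals are not in the files used, so depth is unknown for every library. Among marker genes, 5 of 5 oligodendrocyte, 5 of 5 astrocyte, 4 of 5 microglial, 5 of 7 neuronal and 4 of 4 Schwann cell and sensory ganglion markers had a row in the RIP table. Of the 7 blood and skeletal muscle markers, the globin gene Hbb had 1 row, and Hba-a2, a symbol on more than 1 row, was left out. Hba-a1, Alas2, Acta1, Ckm and Myh4 had no row. Markers without a row were not analysed here. For the ac4C lists, a peak counted when its false discovery rate (FDR), as the authors gave it, was at most 0.05. That left 919, 1240 and 899 peaks in bone cancer pain 1, 2 and 3 and 916, 1074 and 1003 in controls 1, 2 and 3. As deposited, bone cancer pain list 1 held 50417 peaks, of which 49204 shared a single fold of 10.6 and an FDR of 0.0562. That recurrent value was found in 52 of the 60 members (86.7%) and in 78.8% of the protein-coding genes of the RIP table, and 34 members had it without any peak under the limit.

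At the FDR limit, 21 of the 60 members (35%) had an ac4C peak in at least 1 of the 6 lists, next to 37.4% of the 8420 protein-coding genes. Peaks were in 12 members in bone cancer pain (20%, background 23.5%) and in 11 members in controls (18.3%, background 23.1%). Peaks in both groups were found for 2 members, Cul4a and Fbxo2, 3.33% of the members beside 9.2% of the genes. In at least 2 of the 6 lists, of whichever group, there were 4 members (6.67%, background 12.8%): Cul4a, Fbxo2, Fbxo18 and Klhl8. The 28 peaks of these 21 members lay on both strands, 15 on the plus and 13 on the minus strand, with a median exonic width of 180 bp. Of the 28, 18 (64.3%) spanned more than 1 exon block, as did 56.3% of the peaks of all protein-coding genes in the RIP table.

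The number of members with a peak overlapped between the groups. The lists held 6, 5 and 4 members in bone cancer pain 1, 2 and 3 and 5, 4 and 2 members in controls 1, 2 and 3. The means were 5.0 ± 1.0 in bone cancer pain and 3.67 ± 1.53 in controls (SD, n = 3 each). As a share of the protein-coding RIP-table genes of each list, members made up 0.821%, 0.518% and 0.596% in bone cancer pain and 0.713%, 0.485% and 0.251% in controls. These shares averaged 0.645% ± 0.157 in bone cancer pain and 0.483% ± 0.231 in controls (SD, n = 3 each), and the difference of 0.162 percentage points was smaller than the spread between control lists. The 2 highest lists, bone cancer pain 1 and control 1, belonged to different groups.

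**Figure D1:**
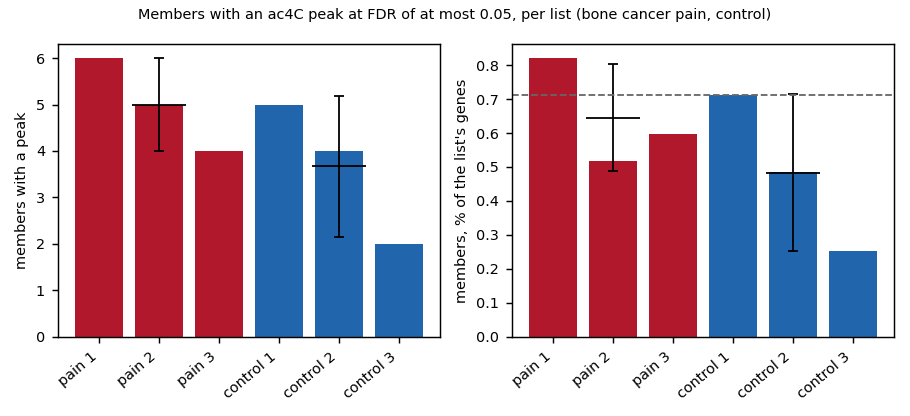
Number of members with an ac4C peak at an FDR of at most 0.05 (left, y axis: genes) and members as a percentage of the protein-coding RIP-table genes with a peak (right, y axis: %), in each bone cancer pain (red) and control (blue) list; the black lines are the mean and SD of each group and the dashed line is the 0.713% that the members make up of the RIP table. The lists ranged from 4 to 6 members in bone cancer pain and from 2 to 5 in controls, so the groups overlapped.

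By family, Fbxo genes had a peak in every list, 2, 2 and 2 of 24 genes in bone cancer pain 1, 2 and 3 and 2, 3 and 1 in controls. Kelch-like genes numbered 2, 1 and 1 of 17 in bone cancer pain and 2, 0 and 0 in controls. Cullins numbered 0, 2 and 0 of 6 in bone cancer pain and 1, 0 and 1 in controls. Fbxw genes had a peak in bone cancer pain 1 only, with 2 genes. For scale, 731, 966 and 671 of the 8420 protein-coding genes had a peak in bone cancer pain 1, 2 and 3, and 701, 824 and 796 in controls 1, 2 and 3. In all, 9 of 24 Fbxo (37.5%), 5 of 17 Klhl (29.4%), 3 of 6 Cul (50%), 2 of 7 Fbxl (28.6%) and 2 of 6 Fbxw genes (33.3%) had a peak, beside 37.4% of the protein-coding genes. No family was called in the same list by more than 3 genes.

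**Figure D2:**
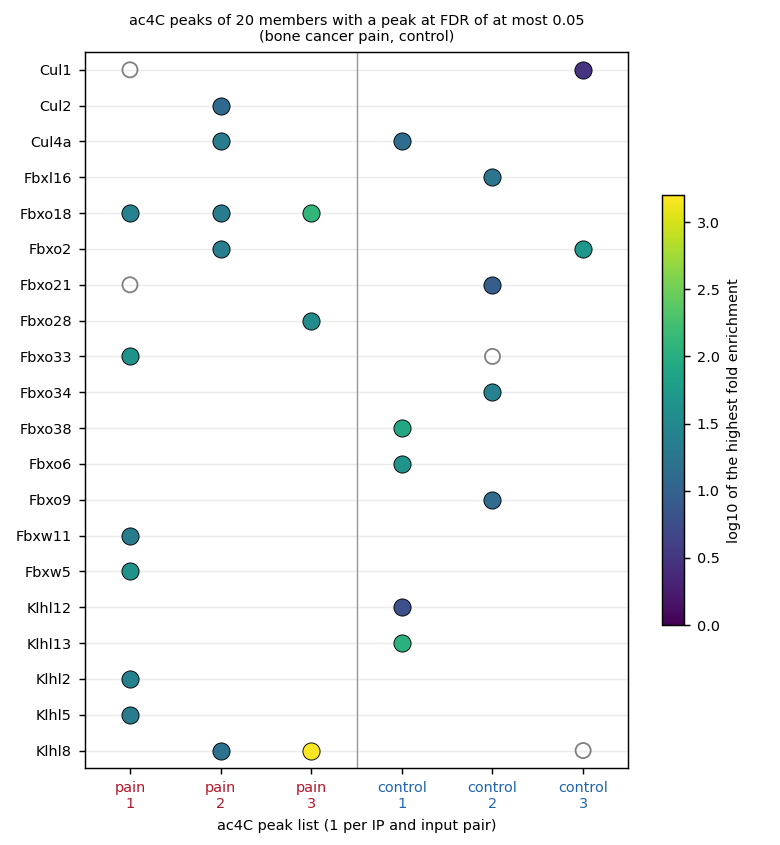
The 20 members described here with an ac4C peak at an FDR of at most 0.05 (rows, by family) across the 3 bone cancer pain and 3 control lists (columns); the filled colour is log10 of the highest fold enrichment, and open circles mark members whose only peaks in that list had a higher FDR, the recurrent value of bone cancer pain list 1 left out. Most rows have 1 filled point; Fbxo18 is filled in all 3 bone cancer pain lists and in no control list.

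Fbxo18 and Klhl8 met the count for a gain in bone cancer pain, a peak in at least 2 of 3 of its lists and in 0 of 3 control lists. That is 3.33% of the members, beside 1.82% of the protein-coding genes (153 of 8420). No member met the opposite count, beside 1.75% of the genes (147 of 8420). As deposited, 6 members (10%, background 11.6%) met the count for a gain and 0 (background 0.76%) its opposite, with Fbxo18 shared between the settings. With 3 lists against 3, an exact permutation test of a single gene cannot go below p = 0.1. Peaks in bone cancer pain lists alone were found for 10 members (16.7%, background 14.3%) and in control lists alone for 9 (15.0%, background 13.9%).

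Fbxo18 (ENSRNOG00000018549), a DNA helicase with an F-box that acts in recombination and at stalled replication forks, was the 1 member with 3 lists against 0; 9 of the 8420 genes (0.107%) had that pattern. Its peaks lay on the plus strand of chromosome 17, at 70436846 to 70437144 in bone cancer pain 1 (fold 26.5), 70429700 to 70431544 in bone cancer pain 2 (fold 20.9) and 70412944 to 70416058 and 70419628 to 70422126 in bone cancer pain 3 (folds 124 and 79.5). Coordinates are of the rn6 build, fold enrichments are the authors' own value for each peak, and a peak's span includes introns between its exon blocks. None of these 4 peaks shared a base with another: the gaps between exon blocks of different lists ran from 5301 to 20787 bp. The bone cancer pain 2 peak (FDR 0.0120) had a fold and p-value shared by 164 peaks of that list. Those of the bone cancer pain 1 peak were shared by 7 peaks of its list, while those of bone cancer pain 3 were single values.

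Klhl8 (ENSRNOG00000002214), whose Caenorhabditis elegans counterpart removes the receptor clustering protein rapsyn, had 2 lists against 0. On the plus strand of chromosome 14 its peaks were at 7190265 to 7190444 in bone cancer pain 2 (fold 15.7, FDR 0.0324) and at 7200607 to 7200816 in bone cancer pain 3. The second had a fold of 1510, the highest of all member peaks and the 10th highest of its list under the limit. The fold and p-value of the bone cancer pain 2 peak were shared by 5 peaks of its list. Control 3 had a peak at 7200607 to 7200756 as well, within the same 210 bp, with a fold of 5.58 and an FDR of 0.0617, just above the limit. Its fold and p-value were shared by 39 peaks of that list. With that peak admitted, Klhl8 no longer met the count for a gain.

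Fbxo2 and Cul4a had a peak in 1 list of each group. Fbxo2 (ENSRNOG00000009409), which encodes a neuron-rich F-box protein that binds sugar chains of misfolded glycoproteins, had a peak on the plus strand of chromosome 5 at 164975733 to 164975881 in bone cancer pain 2 (fold 22.0) and at 164972480 to 164975645 in control 3 (fold 48.8). The nearest exon blocks of the 2 peaks were 87 bp apart, the shortest gap between lists among the members. Cul4a (ENSRNOG00000019649), a scaffold of DDB1 ligases in DNA repair and chromatin control, had a peak on the minus strand of chromosome 16 at 81723224 to 81725974 in bone cancer pain 2 (fold 20.9) and at 81740889 to 81741038 in control 1 (fold 13.4), 14914 bp apart. The Cul4a peak of bone cancer pain 2 (FDR 0.0120) had a fold and p-value shared by 164 peaks of that list, and that of control 1 by 2.

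**Figure D3:**
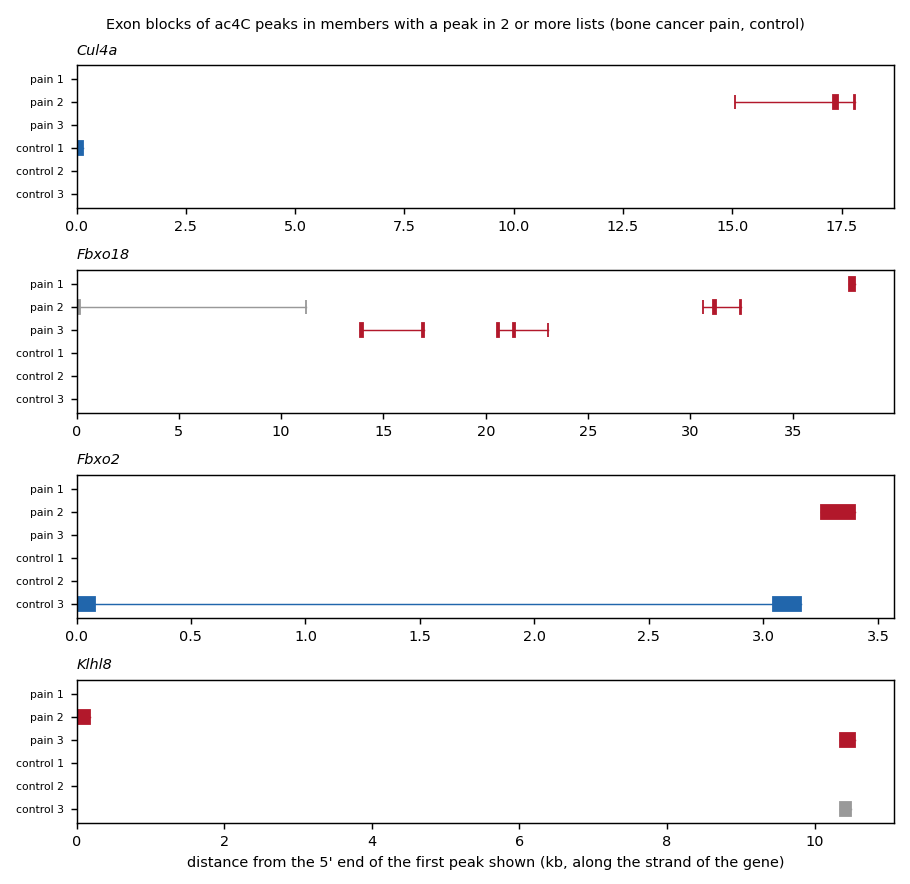
Exon blocks (boxes) of the ac4C peaks of Cul4a, Fbxo18, Fbxo2 and Klhl8 in each bone cancer pain (red) and control (blue) list, with grey for peaks above the FDR limit; the x axis is the distance in kb along the gene's strand from the first peak shown, thin lines join the blocks of a peak, and the recurrent value of bone cancer pain list 1 is left out. Blocks of different lists coincide only for Klhl8, between bone cancer pain 3 and the grey peak of control 3.

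Across all members, the 28 peaks formed 28 separate segments, and 0 of them recurred in a second list. Over the protein-coding genes of the RIP table, 344 of 4845 segments (7.10%) were in 2 or more lists. Of the 8 pairs of member peaks in the same gene and different lists, 0 shared a base, with gaps of 87 to 20787 bp. When peaks above the limit were admitted and the recurrent value of bone cancer pain list 1 was left out, 3 of 39 segments were in 2 lists, and each paired a peak under the limit with one above it. Among them were the Klhl8 segment and 90 shared bases of Cul1.

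Cul1, the scaffold of the F-box ligases, had its peak on the plus strand of chromosome 4 at 77274946 to 77277860 in control 3, with a fold of 3.10, the lowest of the 28. The overlapping peak in bone cancer pain 1, at 77273822 to 77277344, had a fold of 2.44 and an FDR of 0.111.

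Other members with a peak in bone cancer pain had it in a single list. In list 1 these were Fbxo33 (fold 42.3, chromosome 6, 80303109 to 80303258), Fbxw5 (fold 42.3, chromosome 3, 2730300 to 2730677), Fbxw11, Klhl2, an actin-binding receptor for WNK kinases (fold 24.7, chromosome 16, 26838099 to 26840159) and Klhl5. Fbxw11, one of the beta-TrCP proteins that remove beta-catenin and the inhibitor of NF-kB, had its peak on chromosome 10 at 17638648 to 17638828 with a fold of 21.2. Klhl5 had 2 peaks on chromosome 14, at 44810541 to 44812163 and 44814433 to 44818642, with folds of 21.2 and 8.82. The Fbxo33 and Fbxw5 peaks had the same fold and p-value, shared by 26 peaks of list 1. The values of Fbxw11 were shared by 15 peaks, those of Klhl2 by 7 and those of each Klhl5 peak by 2.

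In bone cancer pain 2, Cul2, the scaffold that works with the von Hippel-Lindau protein, had a peak on chromosome 17 at 56969851 to 56974628 with a fold of 12.2. Its fold and p-value were shared by 7 peaks of that list. In bone cancer pain 3, Fbxo28 had a peak on chromosome 13 at 100716683 to 100728624 with a fold of 35.3, a value shared by 30 peaks of that list. Member peaks thus ranged from 8.82 to 42.3 in list 1, from 12.2 to 22.0 in list 2 and from 35.3 to 1510 in list 3. These ranges rest on 7, 5 and 5 peaks, and the median fold over all peaks under the limit was 16.9, 20.9 and 28.7 in these lists.

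In control 1, Klhl13, which acts with KLHL9 on Aurora B in cell division, had the highest fold of the control member peaks, 112, on chromosome X at 121580223 to 121580402. Fbxo38, mutated in a human motor neuropathy, had a fold of 80.1 on chromosome 18 at 57839504 to 57841105, and Fbxo6 a fold of 43.5 on chromosome 5 at 164956517 to 164956830. Klhl12, which acts on the COPII coat of secretory vesicles, had a fold of 6.01 on chromosome 13 at 51311105 to 51312895. In control 2 there were Fbxl16 (fold 17.4, chromosome 10, 15184073 to 15184253), Fbxo21 (fold 8.70, chromosome 12, 44246538 to 44252859), Fbxo34 (fold 26.1, chromosome 15, 24267503 to 24327704) and Fbxo9 (fold 13.0, chromosome 8, 85401207 to 85409033). Fbxo9 had the widest peak of all, 359 bp of exon in 5 blocks. Of these control peaks, the Fbxo34 value was shared by 61 peaks of its list. The Fbxl16 value was shared by 7 peaks, that of Klhl12 by 4 and that of Fbxo38 by 2.

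Fbxo6 and Fbxo2, both receptors for glycoproteins, stand close together: in the GRCr8 gene order Fbxo6, Fbxo44 and Fbxo2 are consecutive protein-coding genes on chromosome 5. Their ac4C peaks were on opposite strands and in different lists for Fbxo6 (minus strand, control 1) and Fbxo2 (plus strand, bone cancer pain 2 and control 3). Fbxo44 had no peak in any list, before or after the limit, and neither did Fbxl17, Fbxo32, Klhl11 and Klhl24. The other 34 of the 39 members without a peak under the limit had one above it, so that as deposited 55 members (91.7%) had a peak in at least 1 list, beside 91.2% of the protein-coding genes.

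The second data set, the RIP in bone cancer pain, covered all 60 members by construction, since the members were taken from its table. That table holds only genes past a threshold of IP over input, so IP and input were not compared by a test. The lowest input signal of any gene in it was 1.00, so input signals such as 1.11 (Fbxo36, input 2) lie close to its lower end. In the authors' deposited table the median log2 fold of IP over input was 2.5 for the members and 2.40 for the 8420 protein-coding genes. The members ran from 1.11 to 3.56 in the authors' deposited table, with an FDR of at most 0.0417. Of the 60, 36 (60.0%) lay above the median of the protein-coding genes, which by definition 50% of them do. Each IP and input pair was also set against its own protein-coding median (2.45 in pair 1, 2.37 in pair 2). In both pairs, 25 members (41.7%, background 38.0%) lay above that median and 19 (31.7%, background 38.0%) lay below it.

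The log2 ratio of IP to input signal was computed for each pair as well. Its median over the members was 2.48 in pair 1 and 2.44 in pair 2, beside 2.45 and 2.37 for the protein-coding genes. The difference between the pairs had an SD of 0.41 over the members and 0.42 over the protein-coding genes. The log2 fold, which rests on both pairs, had an SD of 0.43 between members, so the 2 SDs are not on the same scale. Across the 60 members the pairs correlated with Pearson's r of 0.63 and Spearman's rho of 0.58, a description of genes that share the 4 libraries and the table's threshold. Members with a mean input signal under 2 differed more between pairs (SD 0.48, 20 genes) than the others (SD 0.37, 40 genes). These SDs describe single pairs, and the error of the log2 fold over both pairs is smaller. Differences between 2 members were not tested.

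**Figure D4:**
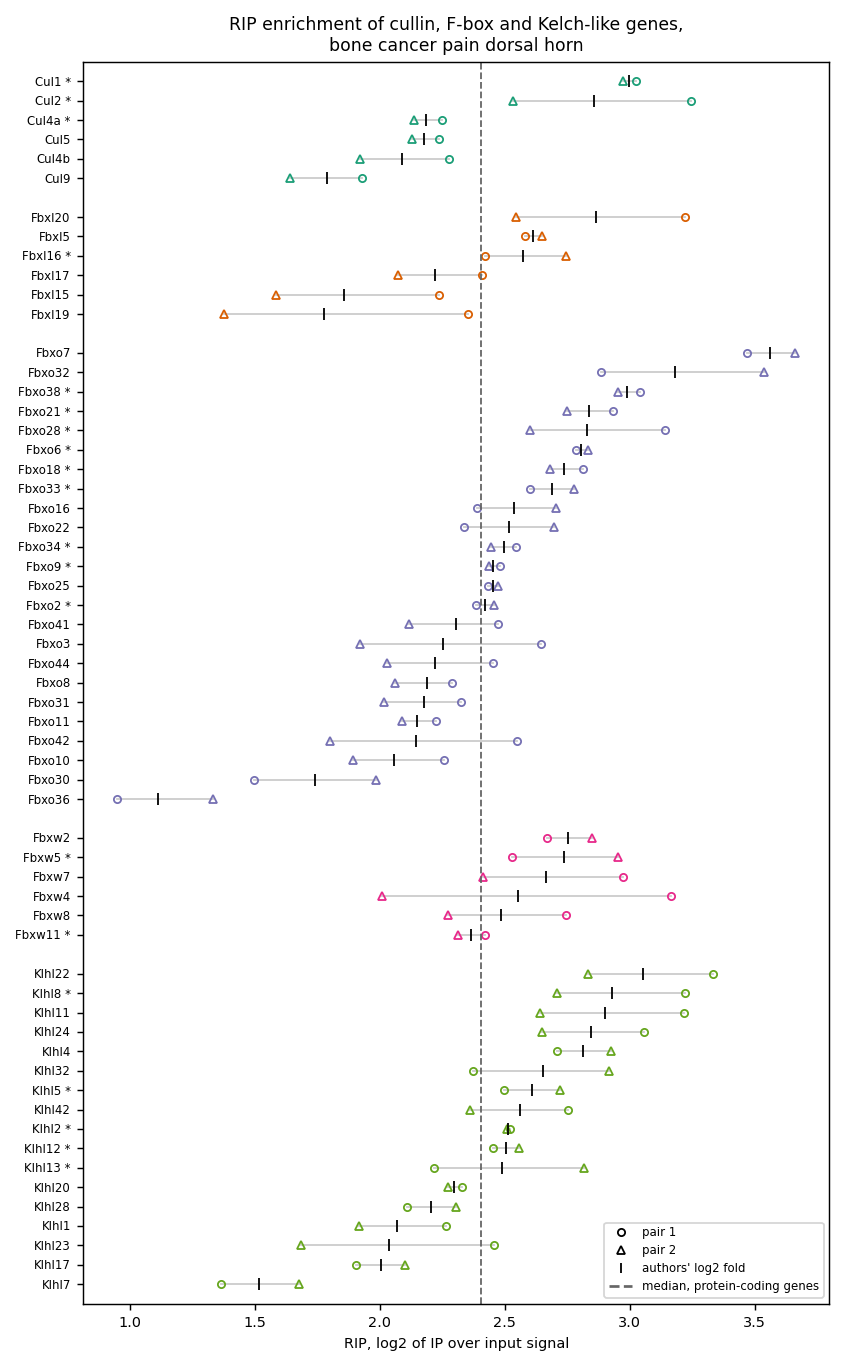
Log2 ratio of IP to input signal in the RIP from bone cancer pain (x axis) for 59 of the 60 members (rows, by family and in order of the authors' log2 fold); circles are pair 1, triangles pair 2, black ticks the authors' log2 fold, the dashed line the median of the protein-coding genes (2.40), and asterisks mark members with an ac4C peak at an FDR of at most 0.05. Fbxo7 lies at the top and Fbxo36 at the bottom, and the pairs lie apart by up to 1.15 (Fbxw4).

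Among the scaffolds, Cul1 and Cul2 stood above the other 4 cullins in both pairs. Cul1 (ENSRNOG00000005310) had 49.0 and 52.9 units of signal in IP 1 and 2 and 6.02 and 6.74 in input 1 and 2, a log2 ratio of 3.03 and 2.97. Cul2 (ENSRNOG00000015292) had 21.8 and 19.7 units in IP and 2.30 and 3.41 in input, a log2 ratio of 3.24 and 2.53. Whether this signal is per length is not given in the header, so levels are not compared between genes.

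Cul5, the scaffold of ligases with SOCS-box proteins, had 22.0 and 23.0 units in IP and 4.66 and 5.26 in input, a log2 ratio of 2.24 and 2.13. Cul4a had 13.8 and 15.4 units in IP and 2.91 and 3.49 in input, a log2 ratio of 2.25 and 2.14, and its paralog Cul4b had 19.9 and 18.9 in IP and 4.1 and 5.0 in input, a log2 ratio of 2.28 and 1.92. These 3 did not separate beyond the difference between pairs. Cul9, a cytoplasmic cullin that binds p53, had the lowest ratios of the cullins, 1.93 and 1.64, from 7.66 and 6.53 units in IP and 2.01 and 2.09 in input. The cullins' median log2 fold in the authors' deposited table was 2.18. Of the 6, 2 (33.3%, background 38.0%) lay above the protein-coding median of the pair in both pairs and 4 (66.7%, background 38.0%) below it in both.

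Among the F-box genes, Fbxo7 had the largest log2 fold of the 60 members, and the largest ratio in both pairs. Fbxo7 (ENSRNOG00000004637), mutated in an early-onset form of human parkinsonism and linked to the clearance of mitochondria, had 34.2 and 32.1 units in IP and 3.09 and 2.53 in input, a log2 ratio of 3.47 and 3.66. Of the protein-coding genes, 99.6% had a lower log2 fold in the authors' deposited table. It had no ac4C peak at the limit. Fbxo32, known as atrogin-1 for its part in muscle wasting, followed with log2 ratios of 2.88 and 3.54, from 14.1 and 14.1 units in IP and 1.91 and 1.21 in input, so its pairs lay further apart. Fbxo38 had ratios of 3.04 and 2.95 and Fbxl20, which in mouse removes the active zone protein RIM1 at synapses, ratios of 3.22 and 2.54.

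At the other end, Fbxo36 had the smallest ratios, 0.95 and 1.34, from 3.43 and 2.79 units in IP and 1.78 and 1.11 in input. Fbxo30 had ratios of 1.5 and 1.98. Fbxl19, which binds unmethylated CpG islands, had 2.35 and 1.38, as its input signal was 2.14 in input 1 and 4.18 in input 2 while its IP signal was 10.9 and 10.8. Fbxl19 is therefore low in pair 2 and near the median of the members in pair 1.

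The Fbxw genes lay in a narrow range of the log2 fold, 2.37 to 2.75 in the authors' deposited table, with Fbxw2 highest and Fbxw11 lowest. Fbxw2 had log2 ratios of 2.67 and 2.85, and Fbxw11 of 2.42 and 2.31 from 33.0 and 32.9 units in IP and 6.17 and 6.61 in input. The order of the 6 genes differed between the pairs. Fbxw4, singled out after its values were seen, had the largest difference between pairs of all members, with ratios of 3.16 and 2.01.

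Fbxo2, Klhl7, Klhl24, Fbxo44 and Fbxo9 had the highest mean input signal of the members, which is no order of transcript number while the scaling by length is unknown. Fbxo2 had 63.8 and 72.1 units in IP and 12.2 and 13.1 in input, and log2 ratios of 2.39 and 2.46, close to the median of the protein-coding genes. Fbxo9 had ratios of 2.48 and 2.44 and Fbxo44 of 2.45 and 2.03. Klhl7, a gene of inherited retinal degeneration in humans, had log2 ratios of 1.37 and 1.68, which gave the second lowest log2 fold of the members, from 29.8 and 31.9 units in IP and 11.6 and 9.97 in input. Klhl24, which in rat binds kainate receptor subunits, had 62.8 and 56.9 units in IP and 7.55 and 9.08 in input, and ratios of 3.06 and 2.65.

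The Kelch-like genes had a median log2 fold of 2.51 in the authors' deposited table. Of the 17, 11 (64.7%, background 50%) lay above the median of the protein-coding genes. Klhl22, which in human cells takes DEPDC5 away to activate mTORC1, had the highest log2 fold of the family in the authors' deposited table, with log2 ratios of 3.33 and 2.83, from 19.1 and 18.9 units in IP and 1.90 and 2.65 in input. Klhl8 had 12.1 and 12.5 units in IP and 1.29 and 1.91 in input, ratios of 3.22 and 2.71. Fbxo18, the other gene that met the count for a gain, had 23.2 and 26.5 units in IP and 3.30 and 4.13 in input, ratios of 2.81 and 2.68. Both genes thus lay above the protein-coding median of each pair, as did 41.7% of all members and 38.0% of the protein-coding genes.

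The families otherwise overlapped. Median log2 folds in the authors' deposited table were 2.18 for Cul, 2.57 for Fbxl, 2.45 for Fbxo, 2.61 for Fbxw and 2.51 for Klhl, and each range but that of Fbxw spanned more than a whole log2 unit. By the authors' deposited table, 54 members (90%) had a log2 fold above 2, beside 79.5% of the protein-coding genes. Above a log2 fold of 3 in the authors' deposited table were Fbxo7, Fbxo32 and Klhl22, or 5.0% of the members, beside 8.04% of the protein-coding genes.

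The 21 members with an ac4C peak at the limit had in the authors' deposited table a median log2 fold of 2.64, against 2.25 for the 39 without. For all protein-coding genes in the authors' deposited table these medians were 2.44 with a peak and 2.38 without. Of the 21 members, 19 lay above the median log2 fold of the protein-coding genes, the exceptions being Cul4a and Fbxw11. In both pairs, 15 lay above the protein-coding median of the pair. Of the 39 others, 17 lay above the first median and 10 above that of the pair in both pairs. Of all protein-coding genes with a peak, 52.7% and 42.6% did, and of those without a peak 48.4% and 35.3% did. In pair 1 the medians were 2.54 with a peak and 2.41 without, and in pair 2 they were 2.68 and 2.12. The median of the mean input signal was 3.16 with a peak and 2.81 without, and its part in this difference was not tested. The 2 readouts come from different libraries, and the description rests on 21 genes chosen by name.

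The other genes of the pathway, taken from lists of named components, gave 96 genes with a row in the RIP table. Their median log2 fold was 2.46 in the authors' deposited table, and 51 of the 96 lay above the median of the protein-coding genes. The COP9 signalosome, which removes the activating NEDD8 from cullins, together with the exchange factor Cand1 had the highest median of these lists, 2.71 over 10 genes in the authors' deposited table. Gps1, its first subunit, had log2 ratios of 3.5 and 3.24, Cops8 of 3.03 and 3.07, and Cops2 of 1.61 and 1.57. The list of 11 adaptor, RING, E2 and related genes, Glmn among them, had the lowest median, 2.24 in the authors' deposited table. In it the F-box adaptor Skp1 had ratios of 1.90 and 1.88, the RING gene Rbx1 3.09 and 2.14, and the CUL4 adaptor Ddb1 2.68 and 2.74.

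The 8 neddylation genes, which attach NEDD8, reached a median log2 fold of 2.30 in the authors' deposited table and included the lowest gene of these lists, Uba3, the catalytic subunit of the NEDD8-activating enzyme, with log2 ratios of 1.07 and 1.03. Of the receptors outside the naming rule, in the authors' deposited table, 19 with a SOCS or VHL box reached a median of 2.62 (Vhl with ratios of 3.16 and 3.07), 19 other BTB proteins 2.53 (Keap1 with ratios of 2.19 and 2.89), 17 DDB1 receptors 2.38 and 2 F-box genes 2.42. For the 10 known substrates the authors' deposited table gave a median of 2.46, with the beta-catenin gene Ctnnb1 at ratios of 3.11 and 2.94 and the cell-cycle inhibitor gene Cdkn1b at 1.72 and 1.74.

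**Figure D5:**
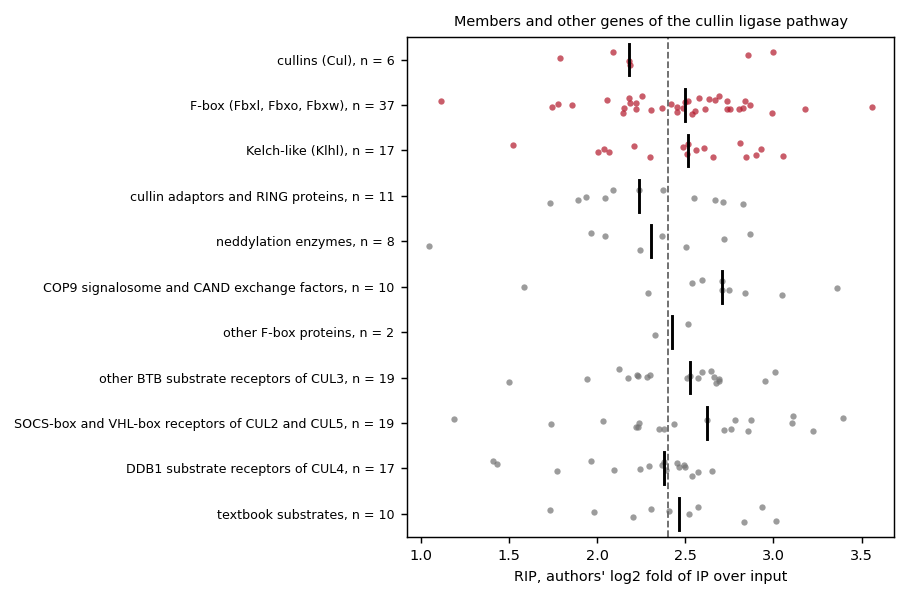
Authors' log2 fold of IP over input in the RIP (x axis) for the cullin, F-box and Kelch-like members (red) and for the other genes of the cullin ligase pathway by list (grey); each point is a gene, black bars are medians and the dashed line is the median of the protein-coding genes (2.40). Medians run from 2.18 for the cullins to 2.71 for the COP9 signalosome and CAND list, and the points of all lists overlap.

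Of these 96 pathway genes, 37 (38.5%, background 37.4%) had an ac4C peak at the limit in at least 1 list, 25 (26.0%, background 23.5%) in bone cancer pain and 20 (20.8%, background 23.1%) in controls. Gained by the count used above were 5 (5.21%, background 1.82%): Kdm2a (an F-box histone demethylase), Ivns1abp and Btbd2 (BTB proteins), Wsb2 (a SOCS-box protein) and Cry2, a circadian repressor. Btbd3, a BTB protein of dendrite orientation, had the opposite pattern, with 0 bone cancer pain and 2 control lists (1.04% of the 96 genes, background 1.75%). Ddb1 had a peak in 3 bone cancer pain and 2 control lists, and its receptor gene Dcaf8 in 1 and 3.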

How the data were processed

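The submitters' processing notes list rn6, DESeq2, featureCounts 1.6.3, HOMER 4.10.4, HISAT2 2.1.0 and cutadapt 2.5 without roles or order, and no source used here names the peak caller. Each deposited peak list gave, per the file headers, a fold enrichment ratio, a p-value and log10 scores of the p-value and FDR for each peak. The authors' RIP table gave a log2 fold, a p-value, an FDR and a normalised signal per library. Everything else was computed with Python 3.11.15, pandas 2.3.3 and numpy 2.4.6. Starts were made 1-based. Peaks were kept at an FDR of at most 0.05, because 1 deposited list consists mostly of peaks above it; overlap meant at least 1 shared base of exon blocks on 1 strand. Calling of gained genes and segments was tested on simulated data.

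Members and lists were chosen with earlier results of these data known, so no p is given for counts over members; the exact permutation test planned for 2 such counts (smallest possible p 0.1) is left out for that reason. Named genes were all cullins, members with a peak in at least 2 lists, the 5 highest and 5 lowest by log2 fold, the extremes of each family and the 5 with the highest mean input signal; the members with a peak are also listed, except 1 gene that is not reported here and is left out of the figures that name genes. Symbols came from the RIP table. The GRCr8 gene table lists pseudogene copies of 5 members (Cul2, Cul4b, Fbxo22, Fbxw2 and Fbxw11), and Cul4a and Cul4b, and Fbxo2, Fbxo6 and Fbxo44, are paralogs, so reads may be split between copies. No source used here states whether the counting used strand. Peak sequences and transcript regions need an rn6 genome and were not analysed here.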

Additional observations from a re-analysis of the deposited data

How the results depend on the processing

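Differences are bone cancer pain minus control. The number of members with a peak per list differed by 1.33, by 0.333 with an FDR of at most 0.01 or with 899 peaks from each list, and by 0.50 to 2.0 when single lists were left out; as deposited it differed by 16, with 54, 6 and 5 members in bone cancer pain and 6, 7 and 4 in controls. The share of a list's genes differed by 0.162 percentage points, and by 0.0455 to 0.276 without single lists. With a replicate block the differences were 1.33 and 0.162, equal by arithmetic, so this setting could not change them. The labels name no rat or batch shared by same-numbered lists, and those lists did not deviate together (r of -0.00396, 0.0130 and -0.00031). Whether any lists shared a batch is not known. Gained members numbered 2, 6 as deposited (background 11.6%, among them Cul2, Fbxo10, Fbxo18, Fbxo28 and Klhl7), 1 at the stricter limit, and 1 to 2 without single lists. Fbxo18 stayed in all of these settings, and Klhl8 was missing when bone cancer pain list 2 or list 3 was left out, at the stricter limit and as deposited. For these 2 genes the outcome without single lists follows from the count itself, as Fbxo18 had 3 lists and Klhl8 had 2. At the stricter limit the Fbxo18 peak of bone cancer pain 2 (FDR 0.0120) was not kept, so its pattern of 3 lists against 0 was lost. Lost members numbered 0 in all of these settings. No member had a peak in more than 1 control list even as deposited, so the stricter limit and leaving out lists could not change this. Segments in 2 or more lists numbered 0, 7 of 176 as deposited, and 3 of 39 as deposited without the recurrent value of bone cancer pain list 1, a setting added after seeing the data. The members' median RIP log2 fold was 2.5, and 2.44 to 2.48 in single pairs or with a filter on input signal (22 members left). With 1 added to each mean signal it was 2.15, beside 2.08 for the protein-coding genes, as the added unit lowers every ratio. Unknown depth, 3 lists a group and 2 RIP pairs limit these values.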
